A study of Mus musculus with 8 samples.

Results

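Protein kinase A, its inhibitor gene Pkig and genes of glucagon signalling were examined in primary hepatocytes of male C57Bl6/J mice, cells freed from the liver with collagenase and cultured. Wells received metformin, a biguanide that lowers blood glucose, at 500 µM for 24 h, or served as controls, for which no vehicle is named, with 4 arrays in each group. The probes are those annotated to Gcgr, Prkaca, Prkacb, Prkar1a, Prkar2a, Pkig, Pkia, Creb1, Crem or Pde4b, under the current or an older symbol. The 10 genes, of 10944 named on the Illumina bead arrays, have 19 of the 16304 probes, and 6 of them have a single probe. The genes were proposed with earlier results of this comparison known, and they are treated here as chosen on the differences between metformin and control wells, so their values are given as a description, without p-values. The sources used here give neither the age of the mice nor say if each well held cells of its own mouse, so the errors measure only the spread between these wells.

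Glucagon tells the liver to release glucose. Its receptor, encoded by Gcgr, acts through a stimulatory G protein on adenylyl cyclase, which makes cyclic AMP (cAMP). The protein kinase A holoenzyme consists of regulatory subunits, such as those of Prkar1a and Prkar2a, that hold the catalytic subunits of Prkaca and Prkacb inactive until cAMP binds. Small heat-stable inhibitors, among them those of Pkig and Pkia, occupy the active site of the freed catalytic subunit as a false substrate. In the nucleus the kinase phosphorylates CREB1, which activates genes with a cAMP response element, and Crem encodes related activators and repressors. Phosphodiesterases such as that of Pde4b break cAMP down.

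Pkig was the 1 gene of the 10 that changed past the threshold, a Benjamini-Hochberg adjusted p under 0.05 in a limma fit over all probes, where 2.93% of the 16304 probes were called lower and 5.64% in either direction. At its bright probe the signal fell by 1.58 ± 0.18 log2 units (SE, n = 4 arrays per group), a 2.99-fold lower level with metformin. The other 18 probes had differences between -0.41 and 0.47 log2 units. These included the glucagon receptor, both catalytic and both regulatory subunits, the inhibitor Pkia, Creb1, Crem and Pde4b. A difference, here and throughout, is metformin minus control on the log2 scale of the deposited intensities.

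The promoter windows of Pkig are shown because Pkig is the gene that changed, and a window of Prkar1a because it holds the full cAMP response element. They are RefSeq windows of the mouse build GRCm38.p6, from 250 bases before to 50 after an annotated start, printed along the gene's strand. Capitals mark the short core TGACG, or CGTCA on the other strand, and the full palindrome TGACGTCA, within which both cores overlap. The first Pkig window is chr2:163658136-163658435 on the plus strand, and the next lies further along the gene at chr2:163693787-163694086 on the plus strand. The Prkar1a window is chr11:109650699-109650998 on the plus strand.
Pkig first start: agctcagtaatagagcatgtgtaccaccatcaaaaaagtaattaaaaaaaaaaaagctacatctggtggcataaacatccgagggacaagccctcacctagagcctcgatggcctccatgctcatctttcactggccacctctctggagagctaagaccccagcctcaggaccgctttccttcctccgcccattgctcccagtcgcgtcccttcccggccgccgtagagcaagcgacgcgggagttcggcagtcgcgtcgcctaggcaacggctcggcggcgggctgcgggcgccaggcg
Pkig later start: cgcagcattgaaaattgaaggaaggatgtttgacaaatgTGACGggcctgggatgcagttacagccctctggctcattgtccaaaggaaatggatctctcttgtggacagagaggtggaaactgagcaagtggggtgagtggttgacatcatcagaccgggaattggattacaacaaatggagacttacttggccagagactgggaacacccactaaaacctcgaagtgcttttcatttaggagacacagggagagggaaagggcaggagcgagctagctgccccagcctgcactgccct
Prkar1a: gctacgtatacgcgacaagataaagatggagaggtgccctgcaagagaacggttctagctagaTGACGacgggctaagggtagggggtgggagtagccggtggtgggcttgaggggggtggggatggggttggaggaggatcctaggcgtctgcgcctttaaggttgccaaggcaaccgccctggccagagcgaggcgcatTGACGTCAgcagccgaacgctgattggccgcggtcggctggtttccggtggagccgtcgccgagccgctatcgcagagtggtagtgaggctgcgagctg

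The first Pkig window holds neither motif, and neither does that of a further annotated start at chr2:163658208-163658507, which overlaps it. The window of the later Pkig start holds 1 core, 211 bases before the start. The full element in the Prkar1a window begins 49 bases before the start. Of 21 windows of 8 of the genes, 8 held a core and 2 the full element, both of them overlapping windows of Prkar1a. No window of Crem or Pkia was examined, so these counts do not cover those genes. Among all 32851 windows of this length 20.8% held a core and 1.79% the full element. A match of letters describes the window and does not show that a factor binds there.

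The 4 metformin and 4 control arrays had been brought to almost the same distribution, with a median of 6.48 log2 units. Metformin and control arrays lay on opposite sides of the first principal component, which held 37.3% of the variance. In the limma fit 2.72% of all probes were called higher with metformin, and 14.6% had groups that did not overlap. Probes of hepatocyte markers were present in both groups. Trf, which encodes transferrin, lay at 14.26 in metformin and 14.22 in control arrays, and Ttr, transthyretin, at 13.68 and 13.64 log2 units in the same order. The Alb probe, for albumin, was dim at 6.05 in metformin and 5.65 in control arrays.

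Probes of markers of other liver cell types also gave signal, and limma called 0 of these 35 probes. Of the 35, 3 had an unadjusted p under 0.05, beside 23% of all probes. The 11 sinusoidal endothelial probes averaged 6.02 to 7.63 log2 units over the metformin arrays and 5.96 to 7.16 over the control arrays, with 10 of 11 differences positive, and 2 of the 11 were called higher with the replicate number as a block. The 3 cholangiocyte probes averaged 6.88 to 8.26 in metformin and 6.51 to 7.05 in control arrays, and all 3 differences were positive, with 1 called with the block. Of all 16304 probes, 562 were called higher with the block, and 6.78% in either direction. For the 9 Kupffer cell and macrophage probes the averages were 6.54 to 7.65 with metformin and 6.79 to 7.89 in controls, with 8 of 9 differences negative. The 12 stellate cell and fibroblast probes averaged 6.87 to 7.75 with metformin and 7.04 to 7.63 in controls. Their part in the results on the kinase genes was not tested. In such mixed cultures fewer cells of a type and less RNA per cell cannot be told apart.

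Gcgr, the receptor through which glucagon acts, did not pass the threshold. Its single probe read 6.47, 5.79, 6.33 and 5.58 log2 units in metformin replicates 1 to 4, and 6.47, 5.47, 5.78 and 5.57 in the control replicates of the same numbers. Replicate 1 was the highest array of both groups, and the groups overlapped. The mean was 6.04 ± 0.43 with metformin and 5.82 ± 0.45 in controls (SD, n = 4 each), a difference of 0.22 ± 0.26 (SE; 95% interval -0.36 to 0.80). Between equal replicate numbers the differences were 0.00 to 0.54, and with the number as a block the standard error was 0.14. The probe was dim, with 42.6% of all probes dimmer.

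The catalytic subunits had bright probes and small differences. At 1 Prkaca probe (ILMN_2833376) the values were 9.69, 9.90, 9.62 and 9.56 log2 units with metformin and 9.69, 9.15, 9.43 and 9.28 in controls. Control replicate 1 reached into the range of the metformin arrays. The difference was 0.30 ± 0.15 (95% interval -0.02 to 0.63). The other Prkaca probe (ILMN_2833378) averaged 9.41 ± 0.13 with metformin and 9.41 ± 0.22 in controls (SD, n = 4 each), with a difference of 0.01 ± 0.14 (SE). The intervals of both probes include 0, that of the first narrowly. Prkacb, the other catalytic subunit, lay at 10.22 to 10.43 with metformin and at 10.02 to 10.36 in controls, a difference of 0.13 ± 0.12 (95% interval -0.14 to 0.40).

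Of the regulatory subunits, Prkar1a encodes type I alpha and Prkar2a type II alpha. Prkar1a read 10.35, 10.67, 10.35 and 10.29 log2 units with metformin and 10.38, 10.17, 10.30 and 10.28 in controls. Metformin replicate 2 stood above the other arrays, which lay within a narrow band. The difference was 0.13 ± 0.12 (95% interval -0.14 to 0.41), and 0.05 without metformin replicate 2. Prkar2a was measured near the lower end of the scale, at 4.42 to 5.24 with metformin and 4.76 to 5.06 in controls, where 24.1% of all probes were dimmer. Its difference was -0.12 ± 0.17.

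**Figure D1:**
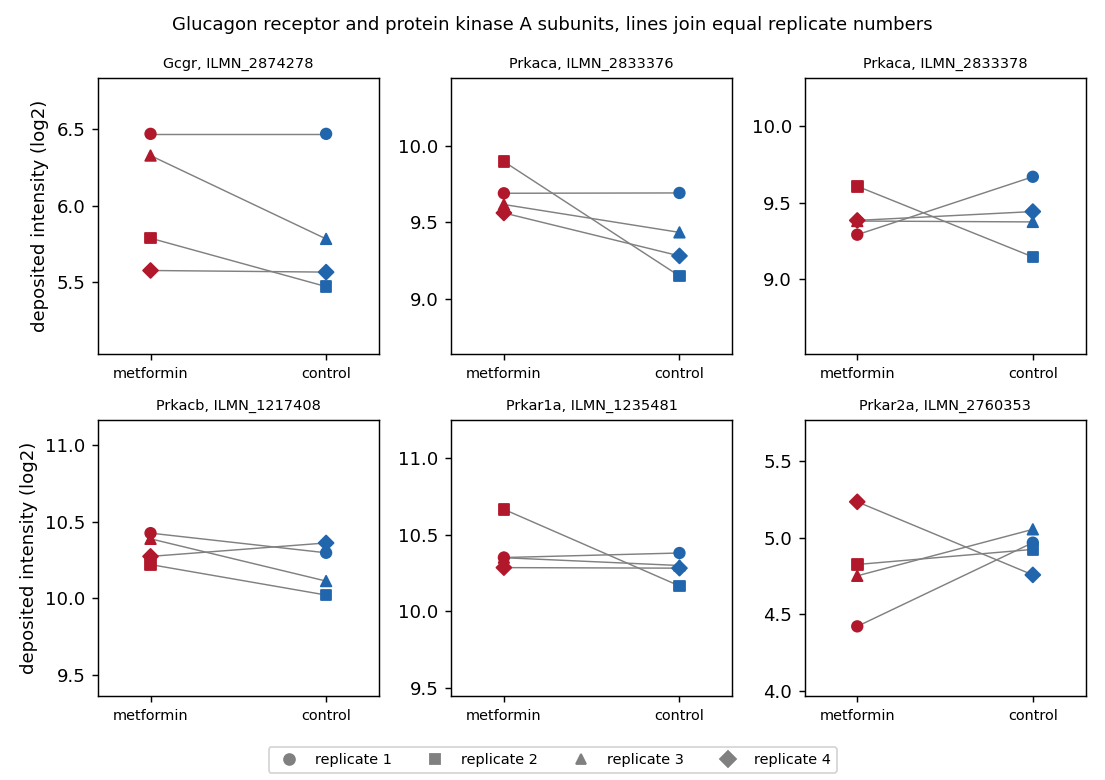
Deposited log2 intensity (vertical axis, with a range of equal width in every panel) of the Gcgr probe and 5 probes of protein kinase A subunits in the metformin (left, red) and control (right, blue) arrays, with lines joining equal replicate numbers. The groups overlap in every panel, and for Gcgr replicate 1 is the highest in both groups at 6.47.

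Pkig encodes the gamma form of the protein kinase inhibitor. Its bright probe (ILMN_3090728) read 9.24, 9.32, 9.70 and 9.72 log2 units in the metformin arrays and 11.09, 11.44, 11.10 and 10.67 in the control arrays. Every metformin array lay below every control array, with almost a full log2 unit between the nearest arrays. The mean was 9.49 ± 0.25 with metformin and 11.07 ± 0.32 in controls (SD, n = 4 each), and the 95% interval of the difference was -1.99 to -1.17. Equal replicate numbers differed by -1.85, -2.12, -1.41 and -0.95, so the smallest drop was that of replicate 4. By the size of the drop the probe ranked 37 of 16304. It passed the threshold in all 8 fits that left out 1 array, with differences of -1.72 to -1.46, and under the 7 other alternatives. These fits reuse the arrays on which the gene is treated as chosen. They describe only how far the difference rested on single arrays or settings.

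The other Pkig probes were dim and gave smaller differences. ILMN_3090731, annotated to the same transcript record as the bright probe, read 5.76, 5.43, 5.73 and 5.67 with metformin and 6.09, 6.04, 6.08 and 6.01 in controls. Here too the groups did not overlap, yet the difference of -0.41 ± 0.12 (SE; 95% interval -0.67 to -0.15) did not pass the threshold over all probes. Of the alternatives it passed only with array weights, at -0.44, and it passed in 0 of the 8 fits that left out 1 array. The control arrays of this probe averaged 6.06, so the lower end of the scale at 4.16 left room for a fall as large as that of the bright probe. A fall of that size was not seen here, and the reason was not tested. ILMN_2616262, annotated to another Pkig transcript record, read 4.67, 4.72, 5.16 and 5.77 with metformin and 5.21, 4.91, 4.89 and 5.44 in controls. Its groups overlapped, with a difference of -0.03 ± 0.24 (95% interval -0.58 to 0.51). Its control arrays averaged 5.11, and the lower end of the scale is 4.16. A fall as large as that of the bright probe could not have shown at this probe. For the dim probes 41.4% and 29.4% of all probes were dimmer, against 92.0% for the bright one.

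**Figure D2:**
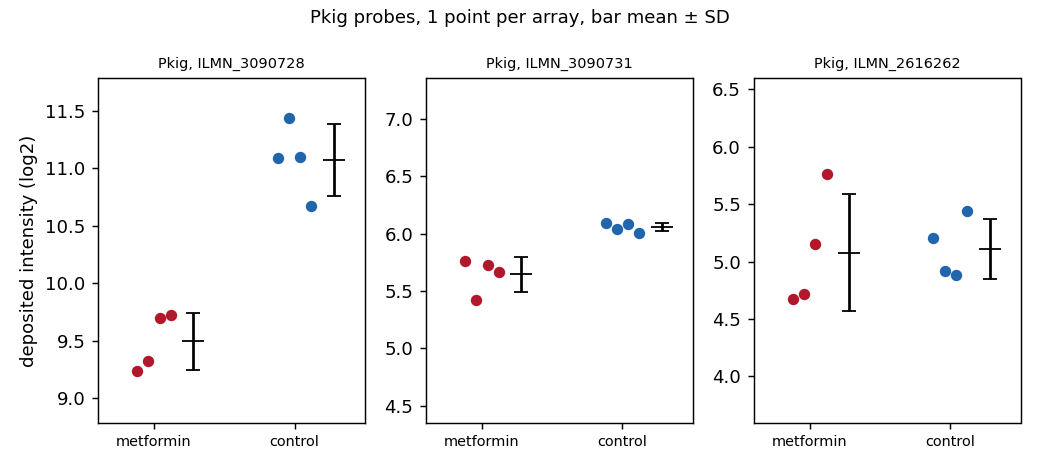
Deposited log2 intensity (vertical axis, spanning 3 log2 units in each panel) of the 3 Pkig probes, 1 point per array, metformin in red on the left and control in blue on the right, with the mean and SD as a bar. The bright probe separates the groups by 1.58 log2 units, the next by 0.41, and the groups of the last overlap.

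Pkia, the alpha form of the inhibitor, was measured at 1 dim probe. Its control arrays averaged 5.50, and the lower end of the scale is 4.16. A drop as large as that of the bright Pkig probe could therefore not have shown there. The Pkia probe read 5.59, 5.96, 5.66 and 5.70 with metformin and 5.98, 5.34, 5.38 and 5.28 in controls. Control replicate 1 lay above every metformin array and the other control arrays below them all. The difference was 0.23 ± 0.17 (95% interval -0.15 to 0.61), or 0.39 without control replicate 1, and neither passed the threshold.

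**Figure D3:**
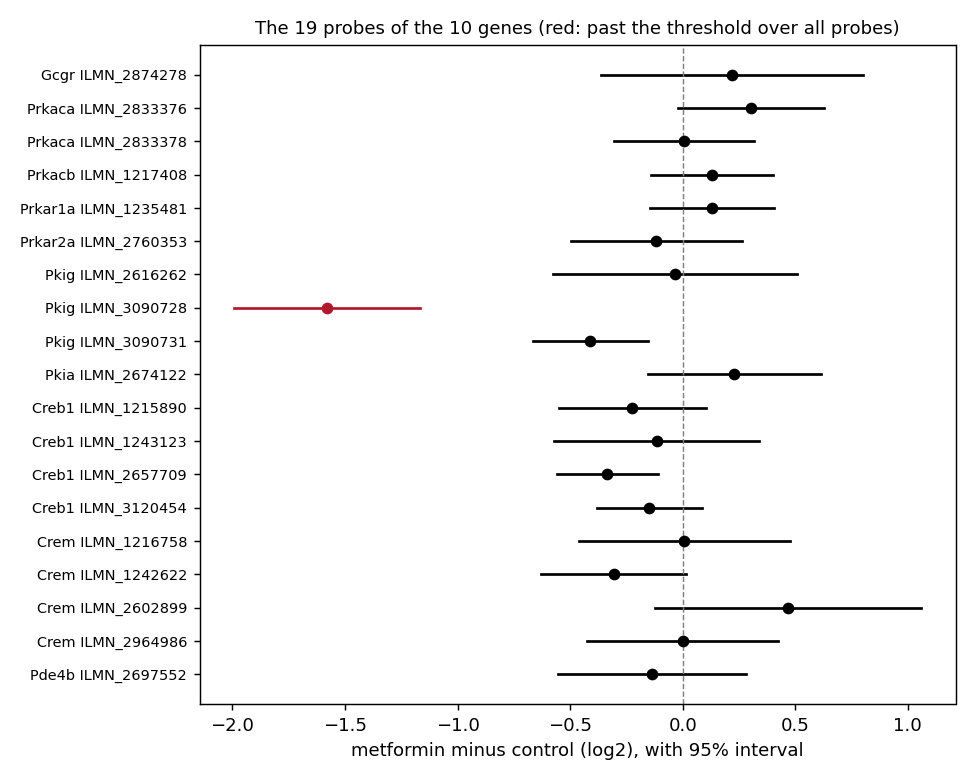
Difference between metformin and control (horizontal axis, log2 units) with its 95% interval for the 19 probes, ordered from the receptor through the kinase subunits and inhibitors to the transcription factors and the phosphodiesterase. The bright Pkig probe, in red, is the 1 probe past the threshold over all 16304 probes, and the other 18 lie between -0.41 and 0.47.

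Creb1 encodes the transcription factor that protein kinase A phosphorylates. All 4 of its probes had negative differences, between -0.33 and -0.12, and none passed the threshold. At ILMN_2657709 the arrays read 4.35, 4.38, 4.40 and 4.45 with metformin and 4.72, 4.80, 4.68 and 4.73 in controls, 2 groups that did not overlap. The difference was -0.33 ± 0.10 (95% interval -0.56 to -0.11). ILMN_3120454 likewise did not overlap, at 4.35, 4.35, 4.33 and 4.31 with metformin against 4.36, 4.46, 4.56 and 4.55 in controls, but its lowest control array stood only just above the highest metformin array. The difference there was -0.15 ± 0.10. These probes lay close to the lower end of the scale at 4.16, with 10.9% and 3.78% of all probes dimmer, a range in which a change can be understated.

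The remaining Creb1 probes overlapped. ILMN_1215890 averaged 5.49 ± 0.15 with metformin and 5.71 ± 0.24 in controls (SD, n = 4 each; difference -0.22 ± 0.15, SE). ILMN_1243123 lay at 4.29 to 4.45 with metformin and, apart from control replicate 2 at 5.15, at 4.23 to 4.27 in controls. Its difference of -0.12 ± 0.20 was 0.11 without that array.

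Crem, which encodes cAMP-responsive activators and repressors from several promoters, had 4 probes that did not move one way. ILMN_2602899 read 5.800, 5.811, 5.996 and 6.333 with metformin and 5.953, 5.151, 6.069 and 4.897 in controls. Its control arrays fell into a higher and a lower pair, and the difference was 0.47 ± 0.27 (95% interval -0.12 to 1.06). ILMN_1242622 read 5.48, 5.83, 5.82 and 5.62 with metformin and 6.25, 6.05, 5.95 and 5.73 in controls, lower with metformin in all 4 pairs of equal number, while the groups overlapped. The difference was -0.31 ± 0.14 (95% interval -0.63 to 0.02). ILMN_1216758 and ILMN_2964986 had differences of 0.01 ± 0.21 and 0.00 ± 0.19. For the first of these, control replicate 2 was again high, and the difference without it was 0.20.

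**Figure D4:**
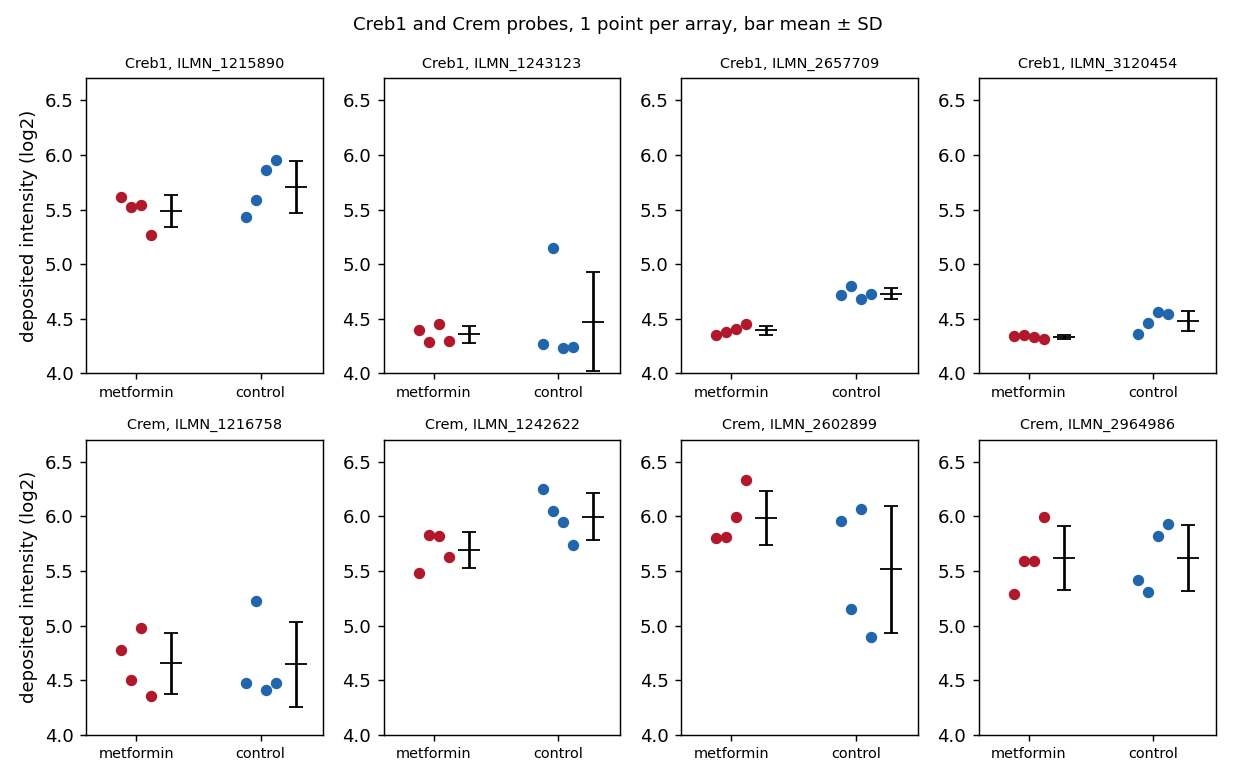
Deposited log2 intensity (vertical axis, the same in all panels) of the 4 Creb1 and 4 Crem probes, 1 point per array, metformin in red on the left and control in blue on the right, with the mean and SD as a bar. Creb1 ILMN_2657709 separates the groups by 0.33 log2 units at the dim end of the scale, and control replicate 2 stands alone at 5.15 and 5.23 for Creb1 ILMN_1243123 and Crem ILMN_1216758.

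Pde4b, a phosphodiesterase that hydrolyses cAMP, read 5.29, 5.25, 5.23 and 5.63 with metformin and 5.09, 5.78, 5.81 and 5.26 in controls. The metformin arrays lay inside the range of the control arrays, and the difference was -0.13 ± 0.19 (95% interval -0.55 to 0.28).

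Over the 19 probes, 1 was called lower and 0 were called higher, which is 5.26% against 5.64% of all probes in either direction. The groups did not overlap for 4 of the 19, all of them lower with metformin, against 7.46% of all probes lower and 7.1% higher. These were the probes of Pkig and Creb1 described above. An unadjusted p under 0.05 was reached by 3 of the 19, all lower, beside 23% of all probes. As the genes are treated as chosen on these differences, these counts and their direction are description and not support. Of the differences 10 were negative and 9 positive, with a median of -0.03, beside 0.00 over all probes. The residual SD between arrays of a group had a median of 0.25 log2 units over the 19 probes and 0.24 over all probes. The 5 probes brighter than the median probe belong to Prkaca, Prkacb, Prkar1a and Pkig.

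The rest of the cAMP pathway was read from 9 lists with 101 probes of 80 genes. The lists too were chosen with earlier results of these data known, so the p-values given for their probes are description. Over the 101 probes 4 rose and 2 fell, which is 5.94% against 5.64% of all probes, and their median difference was 0.01. Of the 6 calls, that of Pcx was made in all 8 fits that left out 1 array. In these fits, made without the block, Gnai2 was called only without metformin replicate 4, and Akap12 only without metformin replicate 1. Adcy6 and Akap7 were called without replicate 1 of either group and Creb3l3 without replicate 4 of either group, and the adjusted p in the other fits that left out 1 array reached 0.137. Adcy6, an adenylyl cyclase, was the 1 of 8 cyclase probes that changed, 12.5% beside 5.64% of all probes. It read 6.38, 6.06, 6.24 and 6.30 with metformin and 6.60, 7.09, 7.07 and 6.75 in controls, without overlap. It fell by 0.63 ± 0.15 (limma adjusted p = 0.0369, and 0.0587 with the replicate block). The 7 other cyclase probes had differences from -0.23 at Adcy8 to 0.45 at Adcy4.

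Among 13 probes of G proteins and their regulators 1 was called, 7.69% beside 5.64% of all probes. This was Gnai2, an inhibitory alpha subunit that restrains adenylyl cyclase. It read 10.96, 11.00, 10.91 and 11.51 with metformin and 11.62, 11.81, 11.63 and 11.76 in controls, again without overlap, and fell by 0.61 ± 0.15 (limma adjusted p = 0.0454). Metformin replicate 4 was the nearest to the controls. Gnas, the stimulatory alpha subunit that couples the glucagon receptor to the cyclase, had differences of -0.10 ± 0.12 and -0.04 ± 0.12 at its 2 probes. Of the 14 probes of Gs-coupled receptors and receptor regulators the limma fit called 0. An unadjusted p under 0.05 was reached by 1 of them, that of Arrb2, a beta arrestin, beside 23% of all probes. Arrb2 had a difference of -0.42 ± 0.14 (limma adjusted p = 0.101), and Ramp2, a receptor activity-modifying protein, was next at 0.62 ± 0.30.

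A-kinase anchoring proteins tether the kinase to sites in the cell, and 2 of their 18 probes rose. This was 11.1% of them, beside 2.72% of all probes called higher and 5.64% in either direction. Akap12, also called gravin, read 8.54, 9.46, 9.39 and 9.99 with metformin and 7.66, 8.22, 7.81 and 8.63 in controls. The groups overlapped, since metformin replicate 1 lay below control replicate 4, but all 4 pairs of equal number were higher with metformin. Its difference was 1.27 ± 0.31 (limma adjusted p = 0.0425), and with the replicate block the standard error was 0.15 (limma adjusted p = 0.0129). Akap7 read 8.14, 8.05, 8.25 and 8.16 with metformin and 7.78, 7.53, 7.52 and 7.63 in controls, without overlap, and rose by 0.53 ± 0.11 (limma adjusted p = 0.0295). In this list 7 of the 18 probes, some higher and some lower, had an unadjusted p under 0.05, beside 23% of all probes.

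Of 12 probes of other phosphodiesterases limma called 0, and 10 of 12 differences were positive. An unadjusted p under 0.05 was reached by 1 of the 12, beside 23% of all probes. Pde10a had a difference of 0.40 ± 0.17 and Pde4d, a paralog of Pde4b, one of 0.31 ± 0.17. The 6 probes of further kinase subunits and inhibitors gave 0 calls in limma and 0 with an unadjusted p under 0.05. Pkib, the beta inhibitor, had a difference of -0.41 ± 0.25 that rested on a single high control array at 5.65 (-0.13 ± 0.12 without control replicate 2), and Prkx, a related catalytic subunit, one of 0.20 ± 0.13. Rap1b and Rap1gap, the 2 genes measured for the EPAC and Rap branch, which cAMP reaches without protein kinase A, had differences of 0.17 ± 0.16 and -0.10 ± 0.22.

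Among CREB relatives and among genes that respond to cAMP or CREB, 1 probe each was called. This was 7.69% and 6.67% of their probes, beside 5.64% of all probes. In the list of CREB relatives, coactivators and salt-inducible kinases 1 of 13 probes rose, that of Creb3l3, a membrane-bound relative of CREB1 found in liver. It read 9.814, 10.0045, 10.154 and 8.995 with metformin and 8.343, 7.853, 8.508 and 9.087 in controls. Replicate 4 was the lowest metformin and the highest control array, so that the groups overlapped. The difference was 1.29 ± 0.30 (limma adjusted p = 0.0374, and 0.0556 with the replicate block). Of 15 probes of genes that respond to cAMP or CREB, 1 rose, that of Pcx, which encodes pyruvate carboxylase. It read 6.24, 6.54, 6.31 and 6.11 with metformin and 5.31, 4.98, 5.42 and 4.91 in controls, a difference of 1.15 ± 0.15 (limma adjusted p = 0.00963). The 14 other probes of that list had differences between -0.55 and 0.46 and include early response genes such as Nr4a1, Fos and Junb.

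**Figure D5:**
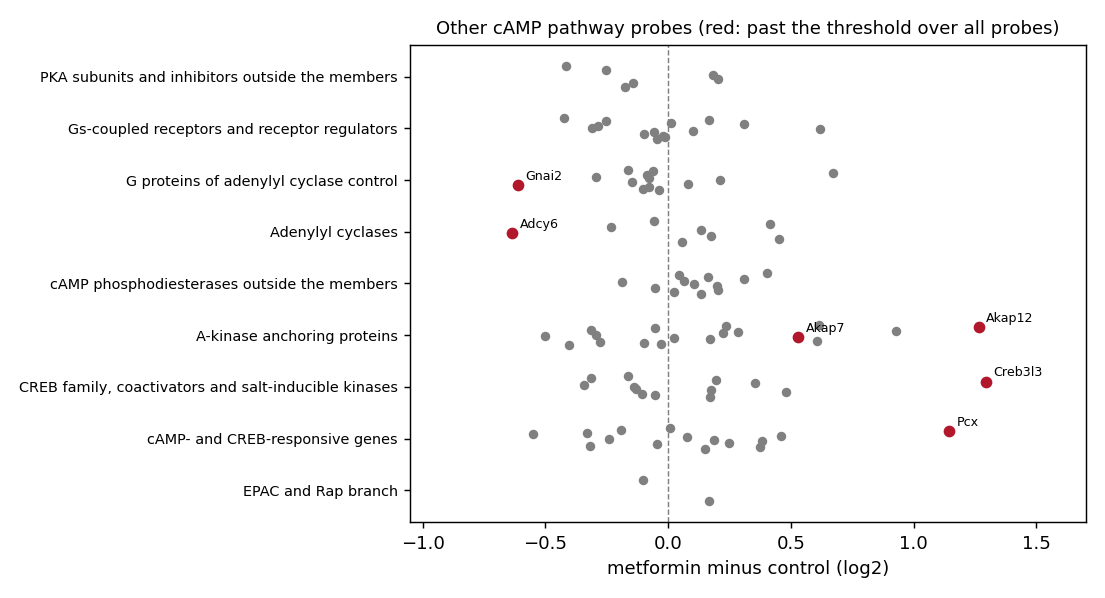
Difference between metformin and control (horizontal axis, log2 units) for the 101 probes of the other cAMP pathway genes, 1 row per list and 1 point per probe. The 6 probes past the threshold over all probes are red and named, Gnai2 and Adcy6 to the left of 0 and Akap7, Akap12, Creb3l3 and Pcx to the right.

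The probes whose values ran nearest to those of the bright Pkig probe over the 8 arrays were found by the root mean square of the differences after each probe's mean was subtracted. They belong to Tapbp (0.24 log2 units), Ccdc92 (0.25), Cdc6 (0.27), Mcm3 (0.29) and Rtl8a (0.30). All 5 were lower with metformin, with differences of -1.47, -1.36, -1.39, -1.47 and -1.23 in that order, as their choice by likeness to Pkig implies. Tapbp encodes tapasin of antigen presentation, and Cdc6 and Mcm3 act in the licensing of DNA replication.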

How the data were processed

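Total RNA of 8 cultures was labelled with biotin and hybridised to Illumina mouse bead arrays, per the labels' protocols. The values were log2 intensities deposited by the authors, in 1 table of 16304 probes. The submitters' processing notes name R 3.2.3 and limma 3.26.9 without saying what each did. The normalization, background correction and any probe filter are not given in the sources used here. Array medians differed by at most 0.00080, so no further normalization was applied. Without detection p-values the distance of dim probes from background is unknown, and precision is limited by the number of arrays.

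Gene symbols came from the platform annotation, which gave 1 symbol to 15301 probes, several to 0 and none to 1003, and symbols were updated by Entrez number in the RefSeq table of GRCm38.p6, which matched 15294. Since every probe is reported, limma 3.58.1 (lmFit and eBayes, R 4.3.3) was fitted per probe to all 8 arrays, metformin minus control. Two-sided p-values were adjusted over all 16304 probes by the Benjamini-Hochberg method at a threshold of 0.05. The fit was also run on simulated data with independent noise for each array, which checks the code and not the results given here. A value after ± is the standard error unless SD is named.

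The genes and lists were chosen with earlier results of these data known. Named from each list were up to 6 called probes with the smallest p, or the 2 with the smallest p where none was called, besides every probe of the 10 genes and the 5 probes nearest to Pkig. A few others named were chosen after their values were seen: Gnas, Adcy4, Adcy8, Nr4a1, Fos, Junb, Trf, Ttr and Alb. Lists were described by counts and medians. Listed genes without a matched probe were not analysed here.

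Deviations from the group mean of same-numbered metformin and control arrays correlated at 0.27, 0.25, 0.13 and 0.20 across probes, all over 0.1, so the replicate numbers were taken to pair the wells, from the data alone. The fit without the pairing is the one reported. The value with the replicate number as a block is given where it changed a call, and also for Gcgr and Akap12. Promoter windows are from the RefSeq tables. The alternatives were the replicate block, quantile normalization, leaving out the dimmest 25% of probes, an offset of 16, array weights, an intensity trend, the brightest probe per gene and leaving out each array.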

Additional observations from a re-analysis of the deposited data

Results flagged for a closer look

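Lone arrays stood apart from the other 3 of their group at 6 of the 76 groups examined (38 named probes in 2 groups), by a gap that passed Dixon's 95% critical value, where about 1 in 20 groups does so by chance. Pkia had 5.98 in control replicate 1, while the other control arrays lay at 5.28 to 5.38. Control replicate 2 was the high array for Creb1 ILMN_1243123, at 5.15 against 4.23 to 4.27, and for Crem ILMN_1216758, at 5.23 against 4.41 to 4.48. For Pde4b, metformin replicate 4 lay at 5.63 and the other metformin arrays at 5.23 to 5.29. Gnai2 was highest in the same array, at 11.51 against 10.91 to 11.00. Rap1b was lowest in metformin replicate 1, at 11.07 against 11.62 to 11.66.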

How the results depend on the processing

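The bright Pkig probe kept its call in all 15 alternatives run, so 1 probe of the 10 genes was called lower in each, except with array weights, where 2 were, the bright and a dim probe of Pkig. The number of the 19 called higher was 0 throughout. With array weights 802 of all probes were higher and 862 lower, against 443 and 477 as reported. In the fits without 1 array, which hold fewer samples, the higher ranged from 69 to 521 and the lower from 107 to 565. Both counts fell by more than 1.5 times without metformin replicate 2 (82 and 107), metformin replicate 3 (69 and 114) or control replicates 2 (159 and 165), 3 (134 and 148) and 4 (193 and 187). Of the other cAMP pathway probes 4 rose and 2 fell as reported, and 1 to 4 rose and 0 to 2 fell in the fits without 1 array. The replicate block and the intensity trend each left 1 lower. With the block Adcy6 and Creb3l3 missed the threshold at limma adjusted p of 0.0587 and 0.0556, and it changed no other call among the named probes. Adcy6 missed it with the trend as well (0.0657), and Arrb2 passed with array weights (0.0400) and without metformin replicate 1 (0.0492), where it was 1 of the 2 called lower. Probes near the lower end of the scale, such as those of Creb1 and Prkar2a, limit what can be seen, since a change there is compressed.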
